A study of Mus musculus with 24 samples.

Results

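The 9 genes described here encode the ferritin chains and the proteins that bring iron into a mouse cell, export it, release it and sense it. They were taken by name from the 78298 genes of the deposited tables. The group was chosen by the granulosa cell values of Ftl1, which in earlier results of these data were higher with each treatment than in controls. The members are Ftl1 (ENSMUSG00000050708), Fth1 (ENSMUSG00000024661), Hmox1 (ENSMUSG00000005413), Tfrc (ENSMUSG00000022797), Slc11a2 (ENSMUSG00000023030), Slc40a1 (ENSMUSG00000025993), Ncoa4 (ENSMUSG00000056234), Ireb2 (ENSMUSG00000032293) and Aco1 (ENSMUSG00000028405). All 9 were found in the tables of both cell types, and all passed the filter on low counts except Slc40a1 in oocytes.

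RNA sequencing was done on oocytes and on granulosa cells, the somatic cells around the oocyte, from WT mouse ovarian follicles held in alginate, a polysaccharide gel, until day 3. The follicles were treated with blebbistatin (20 µM), a blocker of the motor protein myosin II, or with dextran (10 kPa), a polysaccharide that presses on the follicle by osmosis, or were left as controls, and each of the 6 groups had 4 libraries. Every group, controls included, grew in medium with serum, insulin, transferrin, selenium and 50 mIU/ml FSH, so iron carried by transferrin was supplied to all of them. Only follicles that had passed 180 µm were separated by hand, each oocyte library pooled 1 to 2 oocytes, a granulosa cell library pooled a larger number of cells, and cDNA was amplified over 15 PCR cycles. The labels state neither the animals' age and sex nor if the blebbistatin solvent was also added to controls. The replicates are called biological, but nothing says that they came from separate animals or cultures, so p-values measure only the spread between these libraries.

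Cells keep iron inside ferritin, a hollow shell built from the heavy chain Fth1, which oxidises iron, and the light chain Ftl1, which helps the mineral core to form. Iron enters on transferrin through the receptor encoded by Tfrc, leaves the endosome through the transporter encoded by Slc11a2 and leaves the cell through ferroportin, encoded by Slc40a1. Hmox1 opens haem and frees its iron, Ncoa4 carries ferritin to the lysosome for breakdown, and the iron regulatory proteins encoded by Aco1 and Ireb2 bind a hairpin in mRNA, the iron responsive element. Bound in a 5′ UTR the element holds back translation, and bound in the 3′ UTR of Tfrc it protects the mRNA from decay, so much of this control acts after transcription and RNA levels do not give protein levels.

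The iron responsive elements of the members are shown because they are the sequence that links the storage, import and export genes. They are 27-base matches to an unpaired C, a stem and a CAGTGN loop in UTRs of GENCODE M21 transcripts, with GRCm38 coordinates, written 5′ to 3′ with the loop in capitals.
Ftl1 5′ UTR, chr7:45459780-45459806 (minus strand): tcttgcttcaaCAGTGTttgaacggaa
Fth1 5′ UTR, chr19:9982733-9982759 (plus strand): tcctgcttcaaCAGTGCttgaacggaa
Slc40a1 5′ UTR, chr1:45925466-45925492 (minus strand): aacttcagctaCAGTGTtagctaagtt
Tfrc 3′ UTR, chr16:32631220-32631246 (plus strand): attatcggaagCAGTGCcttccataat
Tfrc 3′ UTR, chr16:32631599-32631625 (plus strand): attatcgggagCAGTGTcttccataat
Tfrc 3′ UTR, chr16:32631664-32631690 (plus strand): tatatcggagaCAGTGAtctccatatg
Tfrc 3′ UTR, chr16:32631711-32631737 (plus strand): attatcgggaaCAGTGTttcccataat
Such a match was found in 4 of the 9 members and in 32 of the 21877 genes searched, which is 0.146%. None of the 62 other iron genes searched held one, and the absence of a match says only that this pattern is not in these UTRs. The elements of Fth1 and Ftl1 had 25 of 27 bases in common.

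The ferritin promoters are shown because the choice of genes rests on Ftl1, and Fth1 is its partner chain in the shell. Each is the 250 bases before the start of the gene in RefSeq on GRCm38.p6, written 5′ to 3′ along the gene, with GC boxes (GGGCGG) and CCAAT boxes (CCAAT) on either strand in capitals. Promoters of Ftl1, Fth1, Tfrc, Ncoa4, Ireb2 and Aco1 were matched, 6 of 9 members, and those of Hmox1, Slc40a1 and Slc11a2 were not. Fth1 has another start upstream, whose promoter is not shown.
Ftl1 promoter, chr7:45459887-45460136 (minus strand): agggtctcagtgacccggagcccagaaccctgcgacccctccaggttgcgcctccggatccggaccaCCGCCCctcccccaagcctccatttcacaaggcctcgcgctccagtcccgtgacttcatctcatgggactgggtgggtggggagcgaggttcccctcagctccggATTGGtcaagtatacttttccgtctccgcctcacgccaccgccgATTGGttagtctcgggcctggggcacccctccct
Fth1 promoter, chr19:9982396-9982645 (plus strand): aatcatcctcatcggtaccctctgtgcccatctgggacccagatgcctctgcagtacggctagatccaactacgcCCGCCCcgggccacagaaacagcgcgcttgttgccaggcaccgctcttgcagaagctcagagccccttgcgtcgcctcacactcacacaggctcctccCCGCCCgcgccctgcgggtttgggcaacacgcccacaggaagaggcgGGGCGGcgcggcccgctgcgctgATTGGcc
The Ftl1 promoter held 1 GC box and 2 CCAAT boxes, and that of Fth1 held 3 GC boxes and 1 CCAAT box. Over all 32851 promoters of the table, 32.7% held a GC box and 33.8% a CCAAT box. The antioxidant response element TGACNNNGC, searched on both strands because it serves ferritin and Hmox1 genes in mouse, was in neither of these windows and in 10.2% of all promoters. Only these 250 bases were searched, so an element farther from the start would be missed and nothing is read from its absence here. These matches describe the letters and not sites of binding.

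The libraries held 14244100 to 22431000 estimated counts each. Levels are given as CPM, the counts per 1000000 counts of the library, and changes as log2 values with their standard error (SE) from edgeR fits with TMM scaling. A gene is called where its adjusted p was below 0.05 over all genes of the fit. All 12 oocyte markers were counted in every oocyte library, with sums of 16235 to 26489.8 CPM, and at most 1 of the 12 granulosa markers was at 0 in a granulosa cell library. The granulosa markers summed to 17215 to 22413 CPM with blebbistatin, 23321 to 28674 CPM with dextran and 25802 to 33905 CPM in controls. Some libraries stood apart. The first and second blebbistatin granulosa cell libraries held macrophage transcripts, with summed levels of 15 markers of 787 and 1127 CPM. In the other 10 granulosa cell libraries these markers summed to 3.91 to 18.1 CPM. The first blebbistatin library also had counts for only 14544 genes, against 18611 to 24309 genes in the other granulosa cell libraries. The 12 stroma and theca markers summed to 410.3 to 1639 CPM in granulosa cells with blebbistatin, 21.3 to 373.7 CPM with dextran and 23.2 to 389.6 CPM in controls. The second control oocyte library carried granulosa transcripts, with the 12 markers at 8.46% of their mean in granulosa cells of the same treatment, against 0.234% to 2.01% in the other 11 oocyte libraries. The fourth control oocyte library held haemoglobin transcripts, with 7 erythroid markers summing to 102.5 CPM. Some of the results that these libraries enter are also given without them.

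In granulosa cells the light chain Ftl1 was higher with blebbistatin and with dextran than in controls. It had 3880.45, 4369, 3376 and 3286 CPM with blebbistatin, 2480.2, 3023, 2951 and 3087 CPM with dextran, and 1835, 1888, 1565 and 2159 CPM in controls. The ranges of the 3 groups did not overlap, with blebbistatin at the top and control at the bottom. The log2 change from control was 1.03 ± 0.12 (SE) for blebbistatin and 0.65 ± 0.12 for dextran. Ftl1 was picked for these changes and both comparisons share the 4 control libraries, so the values are a description with no test, for Ftl1 and for the other members. In bulk RNA, fewer cells of a type and less RNA per cell cannot be told apart.

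The heavy chain Fth1 had 2257, 2863, 1869 and 1895 CPM in blebbistatin granulosa cells, 1455, 1694, 1710.4 and 1903 CPM with dextran, and 1249, 1304, 1096 and 1775 CPM in controls. Every blebbistatin library lay above every control, while dextran overlapped both, and 1 control library, the fourth, was well above the other 3. Its log2 change from control was 0.74 ± 0.16 with blebbistatin and 0.34 ± 0.16 with dextran. The haem oxygenase gene Hmox1 had 70.5, 118.9, 84.0 and 89.9 CPM with blebbistatin, 39.6, 53.0, 31.8 and 64.8 CPM with dextran, and 46.2, 30.3, 39.4 and 38.9 CPM in controls. Blebbistatin stood above the other groups, which overlapped each other. The log2 change was 1.26 ± 0.23 for blebbistatin and 0.31 ± 0.23 for dextran.

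**Figure D1:**
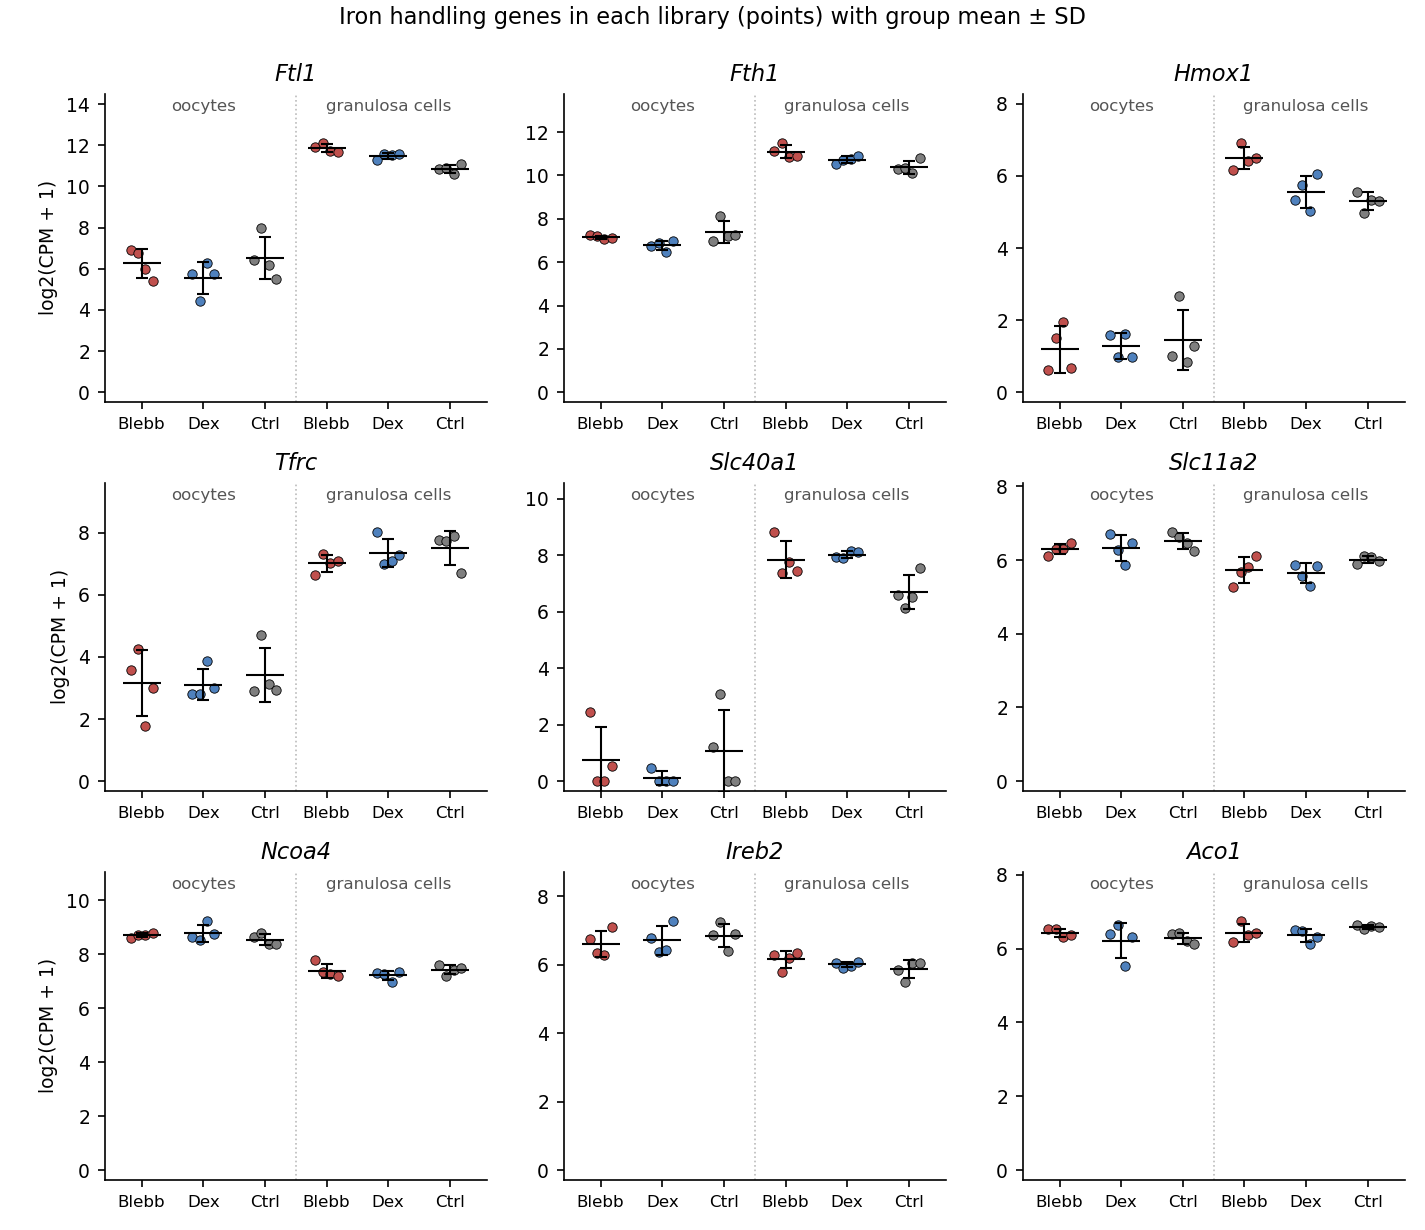
Levels of the 9 genes as log2(CPM + 1) in each library (points, 4 per group) with the group mean and SD (bar), oocytes left of the dotted line and granulosa cells right of it. Ftl1, Fth1, Hmox1, Tfrc and Slc40a1 lie far lower in oocytes, and in granulosa cells Ftl1 steps down across blebbistatin, dextran and control, with means of 3728, 2885 and 1862 CPM.

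Slc40a1, which encodes the iron exporter ferroportin, had 449.8, 164.5, 217.4 and 172.6 CPM in blebbistatin granulosa cells, 245.3, 241.4, 281 and 275.3 CPM with dextran, and 96.1, 69.8, 91.3 and 186.1 CPM in controls. All dextran libraries lay above all controls, and the blebbistatin libraries overlapped them at the fourth control. The first blebbistatin library, 1 of the 2 with macrophage transcripts, was the highest of all 12 and also had the fewest genes counted. The second, with more macrophage transcripts, was the lowest of the blebbistatin libraries for Slc40a1, but the highest of all 12 for Ftl1, Fth1 and Hmox1. The log2 change of Slc40a1 was 1.21 ± 0.34 with blebbistatin, 0.87 without those 2 libraries, and 1.26 ± 0.34 with dextran.

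Neither importer had treated libraries all above the controls. The transferrin receptor gene Tfrc had 98.9, 157.8, 129.2 and 135 CPM with blebbistatin, 257.2, 127.4, 135.6 and 155.4 CPM with dextran, and 214.3, 211, 235.7 and 102.5 CPM in controls. The control range was wide, since the fourth control library lay below 3 of the 4 blebbistatin libraries. The log2 change was -0.53 ± 0.28 with blebbistatin and -0.15 ± 0.28 with dextran. The endosomal iron transporter gene Slc11a2 had 37.8, 50.1, 55.3 and 68.5 CPM with blebbistatin, 57.9, 46.7, 38.0 and 56.4 CPM with dextran, and 58.3, 67.5, 67.2 and 62.0 CPM in controls. All dextran libraries lay just below all controls, and the log2 change was -0.24 ± 0.19 for blebbistatin and -0.34 ± 0.19 for dextran.

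In granulosa cells Ncoa4, the ferritin receptor of the lysosomal route, ranged over 143.6 to 216.6 CPM with blebbistatin, 125.1 to 160.2 CPM with dextran and 145.7 to 194 CPM in controls. Ireb2, the iron regulatory protein that is broken down when iron is plentiful, ranged over 53.8 to 80.6 CPM, 58.9 to 66.7 CPM and 44.2 to 65.7 CPM in the same groups. Aco1, the iron regulatory protein that is an aconitase when it carries an iron-sulfur cluster, ranged over 71.3 to 105.9 CPM with blebbistatin, 68.3 to 89.9 CPM with dextran and 91.3 to 98.3 CPM in controls. The log2 changes of these 3 genes from control lay between -0.20 and 0.32.

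Over the 9 members, the median log2 change from control was 0.32 with blebbistatin and 0.15 with dextran, against -0.05 and -0.004 over the 15370 genes tested. For blebbistatin 1 member was called, Ftl1, where 0.00651% of genes were and under 8 of 21 alternatives it was not called, and for dextran 0 members were called, where 0% of genes were. Ftl1, Fth1 and Hmox1 had blebbistatin ranges above control, where 2.11% of genes did, and no member lay below it, where 4.77% did. Under dextran the ranges of Ftl1 and Slc40a1 lay above control, where 2.11% of genes did, and those of Slc11a2 and Aco1 below it, where 2.66% did. The choice of members used these comparisons, so nothing is read from the counts.

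Without the 2 blebbistatin libraries that held macrophage transcripts, the log2 change of Ftl1 with blebbistatin was 0.89, that of Fth1 0.52, that of Hmox1 1.22 and that of Slc11a2 0.01, against -0.24 with all libraries for Slc11a2. In the 2 remaining blebbistatin libraries, Lyz2, a macrophage lysozyme gene, was at 0 counts, and 12 of the 15 macrophage markers were at 0. In those libraries Ftl1 had 3376 and 3286 CPM, above every dextran and control library. In the 2 libraries with macrophage transcripts Ftl1 had 3880 and 4369 CPM and Fth1 2257 and 2863 CPM, the highest values of both genes. Hmox1 had 70.5 and 118.9 CPM there, its lowest value with blebbistatin and its highest of all. The part of the macrophage, stroma and theca markers, and of the lower granulosa markers, in these values was not tested.

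**Figure D2:**
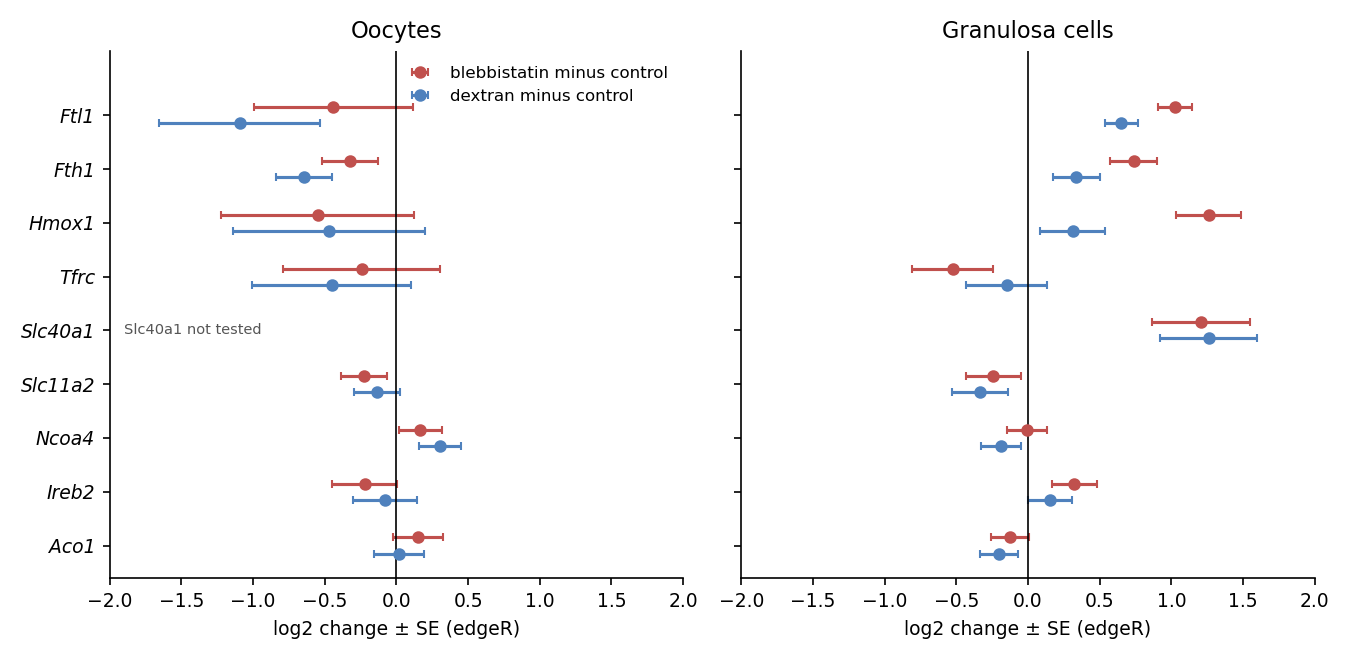
Log2 change from control with SE (bars, edgeR) for blebbistatin (red) and dextran (blue) in oocytes (left) and granulosa cells (right), 4 libraries per group. In granulosa cells Ftl1 lies at 1.03 for blebbistatin and 0.65 for dextran, and in oocytes at -0.44 and -1.09 with much wider bars. Slc40a1 was too low in oocytes to enter the fit.

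Blebbistatin was then set against dextran in granulosa cells. The choice of members did not use this comparison, but it did use the Ftl1 values of both groups. The p-value and the separation of Ftl1 given here are therefore not independent of the choice. None of the 9 members was called by edgeR, nor was any of the 15370 genes tested (0%). At an unadjusted p below 0.05 there were 3 members, Ftl1, Fth1 and Hmox1, where 8.84% of genes were. Hmox1 was higher with blebbistatin by 0.95 ± 0.23 on the log2 scale (adjusted p = 0.263, edgeR), with all 4 blebbistatin libraries above all 4 dextran libraries. DESeq2 called Hmox1 here with an adjusted p of 0.0098, where it called 104 of the 15370 genes higher and 110 lower. With limma voom no member was called. Ftl1 differed by 0.38 ± 0.12 (adjusted p = 0.385, edgeR), again with no overlap between groups. Such separation upwards was seen in 1.72% of all genes tested, and no member was separated downwards, where 3.86% of genes were. Fth1 differed by 0.40 ± 0.16 with overlapping groups (adjusted p = 0.511, edgeR). Slc40a1 differed by -0.05 ± 0.33, its SE too wide to place it on either side. Without the 2 blebbistatin libraries that held macrophage transcripts the log2 differences were 0.91 for Hmox1, 0.24 for Ftl1, 0.19 for Fth1 and -0.38 for Slc40a1.

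The count ratio of Ftl1 to Fth1 within a library does not depend on the library total. In granulosa cells it averaged 1.70 ± 0.12 with blebbistatin, 1.71 ± 0.07 with dextran and 1.39 ± 0.12 in controls (SD, n = 4 each). All 8 treated libraries, from 1.53 to 1.81, lay above all 4 controls, from 1.22 to 1.47, which is a description because the choice of Ftl1 used these groups. The log2 ratio differed by -0.01 between blebbistatin and dextran (exact two-sided permutation test, p = 0.886, adjusted p = 1 over 5 tests). In oocytes the ratio averaged 0.576 ± 0.231 with blebbistatin, 0.488 ± 0.286 with dextran and 0.585 ± 0.255 in controls. The oocyte groups overlapped throughout, with exact permutation p from 0.571 to 1. In control follicles, all 4 oocyte libraries (0.289 to 0.884) lay below all 4 granulosa cell libraries (1.22 to 1.47). The exact permutation p was 0.0286, the smallest that 4 against 4 libraries allow, and 0.143 after adjustment over the 5 tests, which does not pass.

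**Figure D3:**
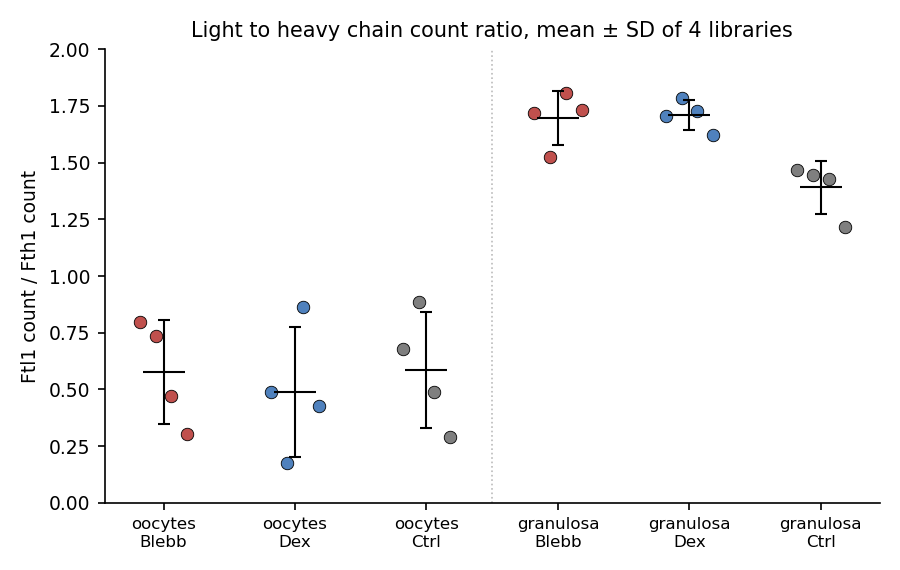
Count ratio of Ftl1 to Fth1 in each library (points) with the mean and SD of 4 libraries (bars). Granulosa cell means are 1.70 with blebbistatin, 1.71 with dextran and 1.39 in controls, and oocyte means lie at 0.576, 0.488 and 0.585 with wide spread.

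Ferritin light chain RNA took a far smaller share of the counts in oocyte libraries than in granulosa cell libraries. Such shares do not give amounts per cell, here or in the other comparisons between cell types. In oocytes Ftl1 had 119.3, 106.8, 61.7 and 41.5 CPM with blebbistatin, 52.4, 20.6, 76.6 and 52.8 CPM with dextran, and 85.9, 247.6, 72.2 and 44.1 CPM in controls. The second control library, which carried granulosa transcripts, was the highest, and the groups overlapped. The log2 change from control was -0.44 ± 0.56 for blebbistatin (adjusted p = 1.000, edgeR) and -1.09 ± 0.56 for dextran (adjusted p = 0.935, edgeR). Without the second control library these became 0.28 and -0.37, so the sign for blebbistatin depended on that library. Whether the effect on Ftl1 differs between oocytes and granulosa cells was not tested.

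Fth1 had 149.96, 144.8, 131.6 and 136.7 CPM in blebbistatin oocytes, 107.4, 118.6, 88.6 and 124.2 CPM with dextran, and 126.6, 280.2, 147.8 and 152.8 CPM in controls. All dextran libraries were the lowest of the 3 groups and did not overlap either of the others. The change under dextran was -0.65 ± 0.19 on the log2 scale (unadjusted p = 0.0047, adjusted p = 0.857, edgeR), and -0.35 without the second control library. Separation downwards was seen in 1.5% of the 16749 genes tested for dextran against control, and upwards, where no member was, in 0.884%. Between blebbistatin and dextran Fth1 differed by 0.32 ± 0.19 (adjusted p = 0.999, edgeR) with separation upwards, as in 1.84% of genes, and no member was separated downwards, as in 0.961%. Between blebbistatin and control no member was separated, where 1.24% of genes were upwards and 1.46% downwards.

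Hmox1 was low in oocytes, with 0.543 to 2.85 CPM with blebbistatin, 0.965 to 2.09 CPM with dextran and 0.801 to 5.38 CPM in controls. Tfrc ranged over 2.40 to 18.2 CPM, 5.94 to 13.5 CPM and 6.52 to 25.2 CPM in the same groups. For both genes the highest control value was again that of the second library. Slc40a1 was counted in 5 of 12 oocyte libraries, at 4.52 and 0.462 CPM in 2 blebbistatin libraries, 0.396 CPM in 1 dextran library, and 1.29 and 7.50 CPM in 2 control libraries. In the other 7 it was at 0 counts, which allows at most 3 counts in a library, or 0.174 to 0.211 CPM, and it was not tested between oocyte groups.

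The other members were well covered in oocytes. Slc11a2 ranged over 68.4 to 87.7 CPM with blebbistatin, 57.8 to 104 CPM with dextran and 74.8 to 106.9 CPM in controls. Ncoa4 ranged over 383.7 to 442.4 CPM with blebbistatin, 362.6 to 593.1 CPM with dextran and 330.4 to 435 CPM in controls. Ireb2 ranged over 76.5 to 135.5 CPM, 81.8 to 152.6 CPM and 83.3 to 149.1 CPM, and Aco1 over 78.3 to 91.1 CPM, 45.2 to 98.2 CPM and 68.3 to 84.7 CPM, in the same order of groups. The groups overlapped for these genes. Over the 3 treatment comparisons in oocytes, edgeR called none of the 8 members tested and none of the 16749 genes (0%). At an unadjusted p below 0.05 it counted only Fth1, for dextran against control, where 5.31% of genes were. DESeq2 and limma voom also called no member in any of them.

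**Figure D4:**
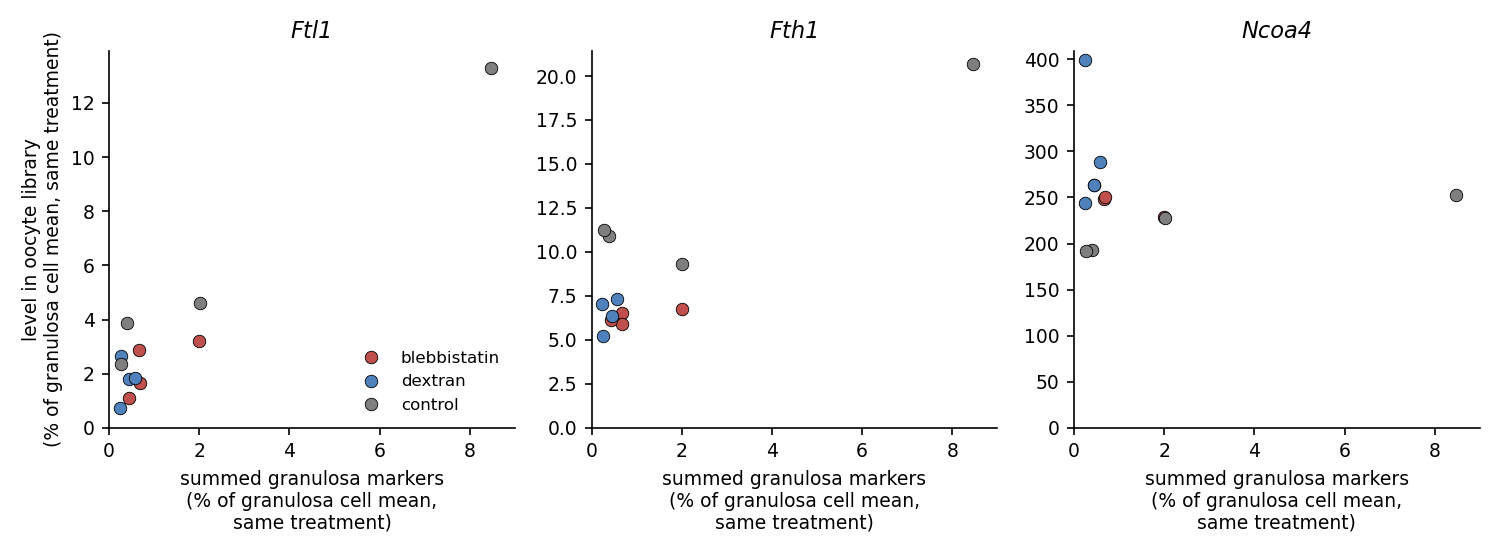
Level of Ftl1, Fth1 and Ncoa4 in each oocyte library against the summed level of 12 granulosa markers there, both as percent of the mean in granulosa cells of the same treatment. The second control library lies far right at 8.46% of the markers, with Ftl1 at 13.3% and Fth1 at 20.7%, while Ncoa4 is above 100% in every oocyte library.

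The granulosa transcripts in oocyte libraries were set beside the members. As percent of the granulosa cell mean of the same treatment, Ftl1 was at 0.716% to 4.61% in the 11 oocyte libraries other than the second control and at 13.3% in that one. Inha, an inhibin gene of granulosa cells, was at 0.00511% to 1.79% in the 11 and at 9.02% in the other. Fth1 was at 5.24% to 11.3% in the 11 libraries, above the share of the granulosa markers in each, and so was Ftl1. For Ftl1, Hmox1 and Tfrc the part of granulosa RNA in the oocyte values was not tested.

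Between the cell types, Ftl1, Fth1, Hmox1, Tfrc and Slc40a1 were lower in oocytes, and Slc11a2, Ncoa4 and Ireb2 were higher. In control follicles edgeR called 8 of the 9 members, 5 lower and 3 higher, where 77.3% of the 20601 genes tested were called, 32.9% lower and 44.4% higher, so a call by itself is common here. Ftl1 averaged 112.4 ± 91.7 CPM in oocytes and 1862 ± 244 CPM in granulosa cells (SD, n = 4 each), a log2 change of -3.64 ± 0.48 (adjusted p = 8.5e-07, edgeR). Fth1 averaged 176.9 ± 69.8 CPM in oocytes and 1356 ± 293 CPM in granulosa cells, a log2 change of -2.57 ± 0.23 (adjusted p = 2.9e-09, edgeR). Hmox1 and Tfrc fell by 3.75 and 3.65 on the log2 scale in oocytes (adjusted p = 5.2e-06 and 4.4e-06, edgeR). Slc40a1 averaged 2.20 ± 3.59 CPM in oocytes and 110.8 ± 51.5 CPM in granulosa cells, a log2 change of -5.19 ± 1.11 (adjusted p = 2.9e-04, edgeR). Without the second control oocyte library the log2 changes were -4.52 for Ftl1, -2.97 for Fth1, -4.87 for Hmox1, -4.53 for Tfrc and -7.77 for Slc40a1, and 8 members were called.

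Ncoa4 averaged 372.1 ± 50.7 CPM in control oocytes and 172 ± 20.3 CPM in control granulosa cells, a log2 change of 1.47 ± 0.17 (adjusted p = 1.3e-07, edgeR). Ireb2 averaged 116.2 ± 26.9 CPM in oocytes and 57.8 ± 10.1 CPM in granulosa cells, a log2 change of 1.37 ± 0.24 (adjusted p = 2.6e-05, edgeR). Slc11a2 averaged 91.6 ± 13.95 CPM in oocytes and 63.8 ± 4.46 CPM in granulosa cells, a log2 change of 0.88 ± 0.20 (adjusted p = 5.1e-04, edgeR). Aco1 ranged over 68.3 to 84.7 CPM in oocytes and 91.3 to 98.3 CPM in granulosa cells, so in CPM all oocyte libraries were lower. With TMM scaling it was not called, at 0.05 ± 0.17 (adjusted p = 0.80, edgeR), and its sign turned to -0.31 with library totals in place of TMM. TMM and library totals differ here by 0.35 on the log2 scale for the control comparison over all genes, and the other 8 members kept sign and call under either. With the treated groups, the same 8 members were called in the same directions with blebbistatin, where 78.9% of genes were called, 44.3% higher and 34.6% lower, and with dextran, where 79.4% were, 44% higher and 35.4% lower. Ftl1 was lower in oocytes by a log2 change of -5.25 ± 0.52 with blebbistatin and -5.54 ± 0.53 with dextran. The call of Ireb2 with blebbistatin, 0.74 ± 0.23 (adjusted p = 0.0066, edgeR), was lost without the second blebbistatin granulosa cell library (adjusted p = 0.070, edgeR) and without the fourth blebbistatin oocyte library (adjusted p = 0.104, edgeR).

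The order of group means over all 6 groups set the granulosa groups above the oocyte groups for Ftl1, Fth1, Hmox1, Tfrc and Slc40a1, with no overlap at the step between the cell types. For Ncoa4 the oocyte groups were the higher, again with no overlap at the step. For Slc11a2 the oocyte group means were also the higher, but oocytes and granulosa cells overlapped with blebbistatin and with dextran. Neighbouring groups within a cell type overlapped for most genes. The exceptions were each step of Ftl1 in granulosa cells, blebbistatin over dextran for Hmox1 in granulosa cells and blebbistatin over dextran for Fth1 in oocytes. All neighbouring groups overlapped for Ireb2 and Aco1.

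Genes whose pattern lay closest to Ftl1 over the 12 granulosa cell libraries were ranked by the root mean square difference of mean-centred log2(CPM + 1), among 10303 genes. Nearest came ENSMUSG00000138136 at 0.064, ENSMUSG00000135826 at 0.10, Gm10252 at 0.14, Fth1 at 0.16 and Gm47428 at 0.17, where Ftl1 itself varied by 0.44. Hmox1 ranked 354 and Ireb2 861. The sequences of ENSMUSG00000138136 and ENSMUSG00000135826 were not compared with Ftl1, so whether they share stretches with it is not known. Gm10252 averaged 488.7 ± 124 CPM with blebbistatin, 406.4 ± 66.1 CPM with dextran and 266.1 ± 39.0 CPM in controls (SD, n = 4 each). In GENCODE M21 it lies on the strand opposite to Ftl1 on chromosome 7, overlaps it by 416 bases and spans the promoter shown above. Of its 31-base stretches, 40.65% are Ftl1 sequence read from the other strand. Gm47428 lies likewise opposite Ftl1-ps1, a copy of Ftl1 on chromosome 13, and 44.37% of its 31-base stretches are Ftl1 sequence on the other strand. No source states whether the counting used strand, so reads from the shared stretches cannot be told apart. Ftl1-ps1 shared 63.48% of such stretches with Ftl1 on the same strand and had 6.85 to 7.66 CPM with blebbistatin, 3.94 to 4.82 CPM with dextran and 2.49 to 3.31 CPM in controls. Adding the counts of such copies to Ftl1 and Fth1 is among the alternatives in the closing part. In oocytes the 5 nearest among 10338 genes were Gm10252, ENSMUSG00000138136, Pabpc1, 4833439L19Rik and Serpinb6a, at 0.17 to 0.39, where Ftl1 varied by 0.84. Ftl1 was highest there, at 247.6 CPM, in the second control library, which carried granulosa transcripts. All 5 genes had higher means in granulosa cells than in oocytes, as with Pabpc1 at 923 and 45.4 CPM in controls. The part of granulosa RNA in this likeness was not tested.

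**Figure D5:**
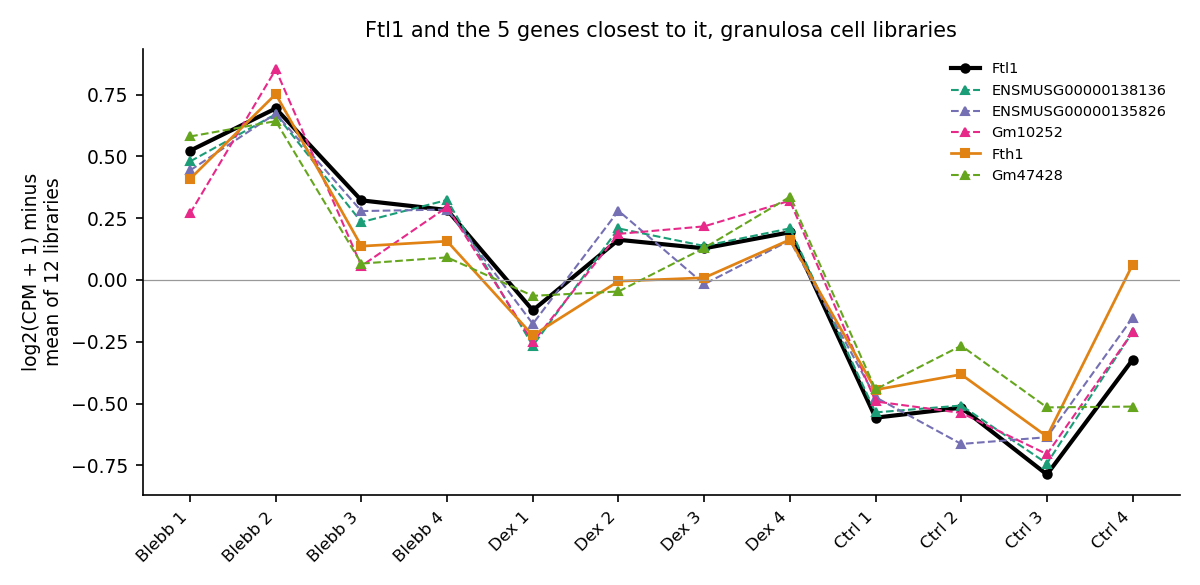
Mean-centred log2(CPM + 1) of Ftl1 (black) and of the 5 genes closest to it over the 12 granulosa cell libraries, by group and replicate. The 6 lines lie mostly above 0 in blebbistatin and below 0 in controls, and their root mean square difference from Ftl1 runs from 0.064 to 0.17.

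The wider iron genes, a list of 64 for uptake and export, sensing and chaperones, haem and mitochondrial iron, were counted beside the members. In granulosa cells edgeR called 0 of the 55 tested for blebbistatin or dextran against control, with 7 and 3 at an unadjusted p below 0.05, where 10.4% and 3.4% of all genes were. The median log2 change was -0.05 for blebbistatin and -0.03 for dextran, against -0.05 and -0.004 over all genes tested. Those with the smallest p, none passing, were for blebbistatin Trf, the transferrin gene (2.66 ± 0.76), the biliverdin reductase gene Blvrb (0.46 ± 0.17), Hfe, which binds the transferrin receptor (-0.95 ± 0.24), and Urod of haem synthesis (-0.25 ± 0.11). For dextran they were Ndfip1 (0.24 ± 0.09), the metalloreductase gene Steap4 (5.57 ± 2.24), Isca1 (-0.20 ± 0.14) and Uros (-0.29 ± 0.21). Steap4 averaged 15.6 CPM with dextran (SD 16.2) against 0.32 CPM in controls (SD 0.37), and the groups overlapped. Between blebbistatin and dextran edgeR called 0 of 55 and 7 had an unadjusted p below 0.05, where 8.84% of all genes had. The smallest p, none passing, were those of Trf (2.10 ± 0.75) and the mitochondrial iron carrier gene Slc25a28 (1.07 ± 0.41) upwards, and of Ndfip1 (-0.32 ± 0.09) and Hfe (-0.64 ± 0.24) downwards. Without the 2 blebbistatin libraries that held macrophage transcripts, Trf was at 0.59 against control and 0.029 against dextran, and Hfe at -1.34 and -1.03.

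In oocytes none of the 48 tested was called in the 3 treatment comparisons, with 2, 6 and 2 at an unadjusted p below 0.05 for blebbistatin against control, dextran against control and blebbistatin against dextran, where 4.1%, 5.31% and 4.07% of all genes were. These values, and those between cell types, were not recomputed without the libraries that stood apart. Downwards, the smallest p with blebbistatin were those of Keap1, whose protein holds down the transcription factor encoded by Nfe2l2 (-0.50 ± 0.23), and Nedd4 (-1.14 ± 0.51), and with dextran those of Keap1 (-0.59 ± 0.23) and Alad of haem synthesis (-0.38 ± 0.15). Upwards they were Isca1 (0.16 ± 0.14) and Pcbp3 (0.19 ± 0.18) with blebbistatin, and with dextran they included Lyrm4 (0.28 ± 0.17). Between blebbistatin and dextran they included Isca1 (0.30 ± 0.14) upwards and Cpox (-0.74 ± 0.24) downwards. None of these passed. Nedd4 averaged 63.8 CPM in control oocytes (SD 52.4), 28.6 CPM with blebbistatin (SD 7.23) and 1554 CPM in control granulosa cells. The part of granulosa RNA in its oocyte change was not tested. Between cell types in control follicles, edgeR called 16 of 57 higher and 31 lower in oocytes, where 44.4% and 32.9% of all genes were. The median log2 change was -0.69 against 0.41 over all genes. The iron-sulfur cluster genes Glrx5 (2.92 ± 0.18), Lyrm4 (2.21 ± 0.15) and Hscb (2.88 ± 0.22) were the smallest in p among those higher in oocytes. Isca2 (-3.29 ± 0.30), Keap1 (-1.88 ± 0.18) and Nfe2l2 (-2.35 ± 0.25) were the smallest among those lower. With blebbistatin 15 of 57 were called higher and 32 lower, where 44.3% and 34.6% of all genes were. With dextran 14 were called higher and 30 lower, where 44% and 35.4% of all genes were. With either treatment, Nedd4 took the place of Nfe2l2 among those named as lower, at -5.61 ± 0.50 with blebbistatin and -5.67 ± 0.50 with dextran.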

How the data were processed

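RNA was sequenced from 24 libraries in 6 groups of 4. The authors deposited estimated counts per gene in 1 table for oocytes and 1 for granulosa cells, named for salmon per the labels. The submitters' processing notes name the build GRCm39. Neither the labels nor the tables state the aligner, annotation release, versions or strandedness. GENCODE M21 and RefSeq entries are on GRCm38 and served only for sequences and neighbouring genes.

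Estimated counts were rounded and fitted with edgeR 4.0.16 in R 4.3.3 (filterByExpr, TMM, robust quasi-likelihood test), over 12 libraries within a cell type and 24 between them, with Benjamini-Hochberg adjustment over all 15370, 16749 and 20601 genes tested in granulosa cells, oocytes and both. CPM use unscaled library totals, while log2 changes come from the TMM fit. SE is the size of the log2 change over the square root of F. The steps were tested on simulated data. Alternatives used DESeq2 1.42.0, limma 3.58.1, other scalings and filters, a replicate block, 2-group fits, copies of the ferritin genes added, and libraries left out. Count ratios were compared by exact permutation (scipy 1.17.1). Floors cover counting error only. The smallest chi-square between replicates was 12.4 per gene, so none is a repeat deposit.

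All 9 members are named. Of the wider list, at most 3 per direction with the smallest adjusted p are named, or, where none passed, the 2 per direction with the smallest unadjusted p and a mean of at least 5 CPM. Some genes that this rule names are not reported here. For likeness to Ftl1 the 5 nearest genes, again from 5 CPM upwards, are named, with a pseudocount of 1. The members and lists were chosen with earlier results of these data known.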

Additional observations from a re-analysis of the deposited data

Results flagged for a closer look

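Of 60 sets of 4 libraries (9 genes and the ratio of Ftl1 to Fth1 in 6 groups), 7 held a library far from the other 3. For values with a normal distribution chance gives about 1 in 20. That rate need not hold for CPM, and the Slc40a1 sets among the 7 held libraries at 0 counts, so no excess over chance is read. The second control oocyte library, which carried granulosa transcripts, was the highest for Fth1 at 280.2 CPM, for Hmox1 at 5.38 CPM and for Tfrc at 25.2 CPM. In oocytes, Tfrc was also highest in the third dextran library at 13.5 CPM. Slc40a1 was highest in the first blebbistatin oocyte library at 4.52 CPM and in the first dextran oocyte library at 0.396 CPM. In control granulosa cells the fourth library had the lowest ratio of Ftl1 to Fth1, 1.22.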

How the results depend on the processing

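Leaving out each library in turn, and all other alternatives, kept Ftl1 higher in treated granulosa cells, by 0.89 to 1.12 (log2) with blebbistatin and 0.57 to 0.72 with dextran. Ftl1 was picked for these rises and its treated ranges lay above control, so the kept sign is no support for them. The edgeR call with blebbistatin was lost in 8 alternatives, where edgeR called 0 genes. Among them, blebbistatin library 3, control library 1, 2 or 3, or dextran library 2 or 4 was left out. The others were the replicate block and the fit with only the 2 groups compared. Because Ftl1 was picked from this comparison, nothing is read from its call or from the loss of it. Without blebbistatin library 2 edgeR called 35 genes higher and 80 lower, and without libraries 1 and 2 it called 11 and 15. Between blebbistatin and dextran there, DESeq2 called 1 member, Hmox1, and edgeR none. Without the second and the fourth control oocyte libraries, an alternative chosen after seeing the data, the blebbistatin change in oocytes turned to 0.060 for Ftl1, 0.038 for Fth1, 0.69 for Hmox1, 0.43 for Tfrc and 0.010 for Ireb2, and the dextran change to 0.77 for Hmox1, 0.23 for Tfrc and 0.15 for Ireb2. Aco1 with dextran in oocytes turned to -0.035 with limma voom, -0.021 with library totals and -0.014 with the replicate block. Tfrc between blebbistatin and dextran in oocytes turned to -0.048 with voom and -0.022 with the replicate block. Aco1 in oocytes against granulosa cells turned, in controls, to -0.31 with library totals, -0.0047 with only those groups, -0.062 without the first 2 blebbistatin granulosa cell libraries and -0.038 without the 2 control oocyte libraries, and with library totals to -0.0073 for blebbistatin and -0.10 for dextran.

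With 1 library left out at a time, these changed sign. Between blebbistatin and dextran in granulosa cells, Slc40a1 ranged over -0.47 to 0.13, Slc11a2 -0.057 to 0.25 and Aco1 -0.018 to 0.18, and Ncoa4 against control with blebbistatin -0.13 to 0.07. For blebbistatin in oocytes Ftl1 ranged over -0.69 to 0.28, Hmox1 -1.08 to 0.42 and Tfrc -0.75 to 0.46. For dextran in oocytes Hmox1 ranged over -0.75 to 0.50, Tfrc -0.82 to 0.26, Ireb2 -0.30 to 0.050 and Aco1 -0.12 to 0.20. Between blebbistatin and dextran in oocytes Hmox1 ranged over -0.63 to 0.21, Tfrc -0.31 to 0.60, Slc11a2 -0.21 to 0.036, Ncoa4 -0.22 to 0.058, Ireb2 -0.33 to 0.086 and Aco1 -0.035 to 0.28. Aco1 between cell types in controls ranged over -0.088 to 0.14. The log2 ratio of Ftl1 to Fth1 ranged over -0.044 to 0.037 for blebbistatin against dextran in granulosa cells, and in oocytes over -0.30 to 0.27 for blebbistatin and -0.71 to 0.066 for dextran against control, and -0.069 to 0.70 between them. Between cell types 8 members were called in controls, 7 to 9 with blebbistatin and 8 to 9 with dextran, where Ireb2 lost its call or Aco1 gained one.

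Counts over all genes depended on the tool: for blebbistatin against control in granulosa cells edgeR called 1 gene higher and 0 lower, and DESeq2 213 higher and 164 lower. For dextran it was 0 by edgeR, against 34 higher and 8 lower by DESeq2, and between the treatments 0 against 104 and 110. In oocytes DESeq2 called 1 higher and 15 lower for blebbistatin and 0 and 4 for dextran, where edgeR called 0. Replicate numbers were not taken as pairs, since nothing states that they mark a shared animal or day. The correlation of deviations was over 0.1 in 4 of 12 same-numbered pairs in granulosa cells and 3 of 12 in oocytes. Among differently numbered pairs it was over 0.1 less often, in 3 of 36 and 5 of 36. These values do not settle whether the numbers mark pairs, so the block was kept as an alternative. With the replicate block the change of Ftl1 in granulosa cells was 1.03 with blebbistatin and 0.66 with dextran, and no gene was called there.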
